A study of Mus musculus with 6 samples.

Results

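The transcription factors that set myeloid cell identity were followed through single-nucleus RNA sequencing (snRNA-seq) of whole tumors. The set held 9 genes, chosen by symbol: Spi1, Maf, Irf8, Irf5, Irf4, Runx1, Pou2f2, Cebpa and Cebpb. Each had a row in the matrices of all 6 libraries, as 9 of the 22623 genes listed there. The rule used no measured level.

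The tumors grew from TC1 cells, a mouse lung epithelial tumor line, placed under the skin of MCT2 loxP/loxP; mCre-Tg hosts on a C57BL/6 background. MCT2, encoded by Slc16a7, carries pyruvate and lactate across membranes. Hosts aged 8 weeks received tamoxifen for 5 days to delete the gene (MCT2 KO, 3 libraries) or vehicle (MCT2 CO, 3 libraries), were injected with TC1 cells 2 days after the last dose, and bore tumors for 24 days. Both groups carried the floxed allele and the Cre transgene, so an effect of tamoxifen and an effect of the deletion cannot be told apart, and the deletion was in the host rather than in the TC1 cells. The labels name the tissue as lung, although the tumors were subcutaneous. Libraries are written here as CO1 to CO3 and KO1 to KO3. The study calls the libraries of a group biological replicates, and p-values measure the spread between them.

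Spi1 encodes PU.1, the ETS-family factor required for macrophages, and Pou2f2 encodes OCT2, an octamer-binding factor known from B cells and also present in macrophages. Maf encodes c-MAF, a bZIP factor of tissue macrophages. Irf4, Irf5 and Irf8 belong to the interferon regulatory factors: IRF8 guides monocyte and dendritic cell development and pairs with PU.1 on composite sites, IRF4 is active in some dendritic cells and in lymphocytes, and IRF5 acts downstream of Toll-like receptors. RUNX1 binds DNA with CBFB and is used throughout blood formation, T cells included. C/EBPα and C/EBPβ are bZIP factors of the monocyte and granulocyte lines, and Cebpb is also used in epithelial and stress responses.

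Promoter windows show the sequence around 4 of these genes, chosen because Pou2f2 and Irf5 were found mainly in myeloid nuclei whereas Runx1 and Cebpb were also found in tumor nuclei. Each window runs from 250 bases before to 50 bases after a transcription start, as given by RefSeq for GRCm38.p6. Of the 9 genes, 7 had an entry, with 9 windows in all; Spi1 and Maf had none. Capitals mark matches, on either strand, to the letters searched: GAGGAA (a core of PU.1 sites), TGTGGT (RUNX), GAAA followed after 2 bases by GAAA (IRF), TTGCNNAA (C/EBP), ATGCAAAT (octamer) and TGCTGA (a MAF core).
Pou2f2, chr7:25132411-25132710, minus strand: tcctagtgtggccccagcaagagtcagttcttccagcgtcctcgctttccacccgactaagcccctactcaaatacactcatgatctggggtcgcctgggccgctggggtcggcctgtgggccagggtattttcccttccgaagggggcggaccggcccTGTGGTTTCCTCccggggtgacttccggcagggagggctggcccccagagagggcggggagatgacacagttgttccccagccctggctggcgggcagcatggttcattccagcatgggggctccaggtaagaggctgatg
Irf5, chr6:29526375-29526674, plus strand: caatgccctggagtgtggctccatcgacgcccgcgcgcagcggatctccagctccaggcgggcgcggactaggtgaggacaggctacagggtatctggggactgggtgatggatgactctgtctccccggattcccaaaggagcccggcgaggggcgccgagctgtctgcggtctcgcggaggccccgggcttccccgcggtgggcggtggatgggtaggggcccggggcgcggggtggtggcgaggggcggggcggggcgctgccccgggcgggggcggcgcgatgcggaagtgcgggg
Runx1, chr16:92826025-92826324, minus strand: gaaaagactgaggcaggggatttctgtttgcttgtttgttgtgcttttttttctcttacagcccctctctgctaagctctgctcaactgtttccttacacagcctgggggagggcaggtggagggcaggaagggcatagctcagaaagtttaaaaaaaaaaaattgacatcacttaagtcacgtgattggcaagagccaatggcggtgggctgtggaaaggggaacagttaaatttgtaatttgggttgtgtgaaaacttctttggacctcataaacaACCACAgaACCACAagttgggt
Cebpb, chr2:167688665-167688964, plus strand: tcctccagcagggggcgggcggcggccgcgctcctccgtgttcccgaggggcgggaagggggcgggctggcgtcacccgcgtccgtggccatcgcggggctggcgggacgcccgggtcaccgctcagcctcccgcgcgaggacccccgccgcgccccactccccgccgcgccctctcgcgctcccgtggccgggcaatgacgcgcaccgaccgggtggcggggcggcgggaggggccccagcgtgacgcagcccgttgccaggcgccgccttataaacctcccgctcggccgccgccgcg

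The Pou2f2 window held a RUNX match whose first base lay 91 bases before the start and, directly after it, a match to the PU.1 core at 85 bases before. The Runx1 window held 2 RUNX matches, which began 28 and 36 bases after the start. Neither the Irf5 nor the Cebpb window held any of the 6 motifs. Of the other windows, the second of Runx1 and that of Irf4 each held 1 PU.1 core, the second of Irf8 held 1 MAF core, and those of Cebpa and the first of Irf8 held none. These letters are common: over 32851 promoter windows of the same length, 28.3% held the PU.1 core, 19.5% the MAF core, 16.8% the RUNX match, 10.8% the C/EBP match, 3.44% the IRF match and 1.74% the octamer. All matches were sought on both strands, and the RUNX and PU.1 matches of Pou2f2 lie next to each other without overlap. A match describes the letters in a window and not a bound site.

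The 6 libraries held 18865 barcodes and 13252572 to 22057084 UMIs (unique molecular identifiers, 1 per captured RNA molecule) each. After filters, 17493 nuclei remained, 7652 CO and 9841 KO, with a median of 1094 (KO3) to 4865 (KO2) UMIs per nucleus, and pairs of libraries shared 19 to 25 barcodes. KO2 and KO3 stood apart: messengers of ribosomal proteins made up 3274 and 7456 CPM (counts per 1000000 UMIs) in their nuclei, against 9720 to 15686 in the other 4. Over all nuclei Slc16a7, the deleted gene, read 8.53, 11.6 and 20.5 CPM in CO1, CO2 and CO3 and 15.7, 6.93 and 31.4 CPM in KO1, KO2 and KO3 (log2 fold change 0.46 ± 0.54 (SE), edgeR adjusted p = 0.721). In the macrophage nuclei described below it read 88.8, 81.9 and 175 CPM in CO1 to CO3. There KO1 to KO3 held 145, 165 and 177 CPM (log2 fold change 0.54, not called). In monocyte nuclei, also described below, its log2 fold change was -0.68 and in tumor nuclei 1.12, neither called. Slc16a7 was thus not called lower in KO in any of these sums. The exons between the loxP sites are not given in the sources used here. These 3′ counts may therefore lie outside the deleted part and check no label.

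Nuclei were put into classes by their UMIs of marker genes, none of them one of the 9 factors. The gate gave 3443 Mrc1-positive macrophage-like nuclei, 510 Ccr2-positive monocyte-like, 86 dendritic-like, 39 plasmacytoid-like, 487 T/NK-like and 8409 tumor-like nuclei, hereafter named without "like". A further 1460 nuclei were myeloid but could not be placed and 3059 met no rule. Of the markers the gate did not use, Wdfy4 stood at 1276 CPM and Zbtb46 at 436 CPM in dendritic nuclei, and Ccr9 at 914 CPM in plasmacytoid nuclei. Ccl17 in dendritic and Cd209d in plasmacytoid nuclei were at 0 CPM. Dendritic nuclei also held the skeletal muscle genes Ttn at 182 CPM and Trdn at 135 CPM, against 18.4 and 14.1 CPM in macrophage nuclei. Of the neutrophil markers, S100a8, S100a9, Retnlg and Cxcr2 were at 0 to 3.51 CPM in every class, while Csf3r, the G-CSF receptor, reached 184 CPM in macrophage nuclei. Tumor markers were seen in the myeloid nuclei as well, with Mecom at 339 CPM in macrophage and 5606 CPM in tumor nuclei. Fewer than 10 nuclei of a class in a library were not summed for tests, which left 4 libraries for dendritic nuclei (CO1, CO2, CO3 and KO1) and 2 for plasmacytoid nuclei (CO2 and CO3). For the share of nuclei in each class, an exact permutation test of KO against CO gave two-sided p from 0.2 to 1 over 6 classes. With 3 against 3 libraries it cannot go below 0.1, so it could not show a difference. Shares varied between libraries: tumor nuclei made up 72.3% in KO2 and 30.3% in KO3, against 46.8 to 51.9% in the others. Macrophage nuclei made up 8.71% in KO2, against 18.6 to 24.5% in the others.

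To ask where each factor was transcribed, counts were summed by library and class, and the 30 sums were fitted together over 6320 genes. All comparisons with one class share the sums of that class. Of the 9 factors, 6 passed the filter on low counts: Spi1, Pou2f2, Maf, Irf5, Runx1 and Cebpb. The filter kept genes that were high in at least one class, so a count over these 6 describes them and is not support. A gene was called when its fold change was at least 0.58 on the log2 scale with an edgeR adjusted p of at most 0.05. Against tumor nuclei, 5 of the 6 were higher in macrophage nuclei, beside 25.4% of all genes tested, and none was lower, beside 27.7% (53.2% either way). Against T/NK nuclei, 4 were higher, beside 17%, and none was lower, beside 13.7% (30.7% either way). The median difference of the 6 was 4.74 (log2) against tumor and 2.10 against T/NK nuclei, beside -0.04 for all genes tested in both. The split over all genes depended on the scaling: with DESeq2 size factors 1288 genes were higher and 2342 lower than in tumor nuclei (1608 and 1753 as reported), and 924 higher and 1173 lower than in T/NK nuclei (1076 and 866).

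**Figure D1:**
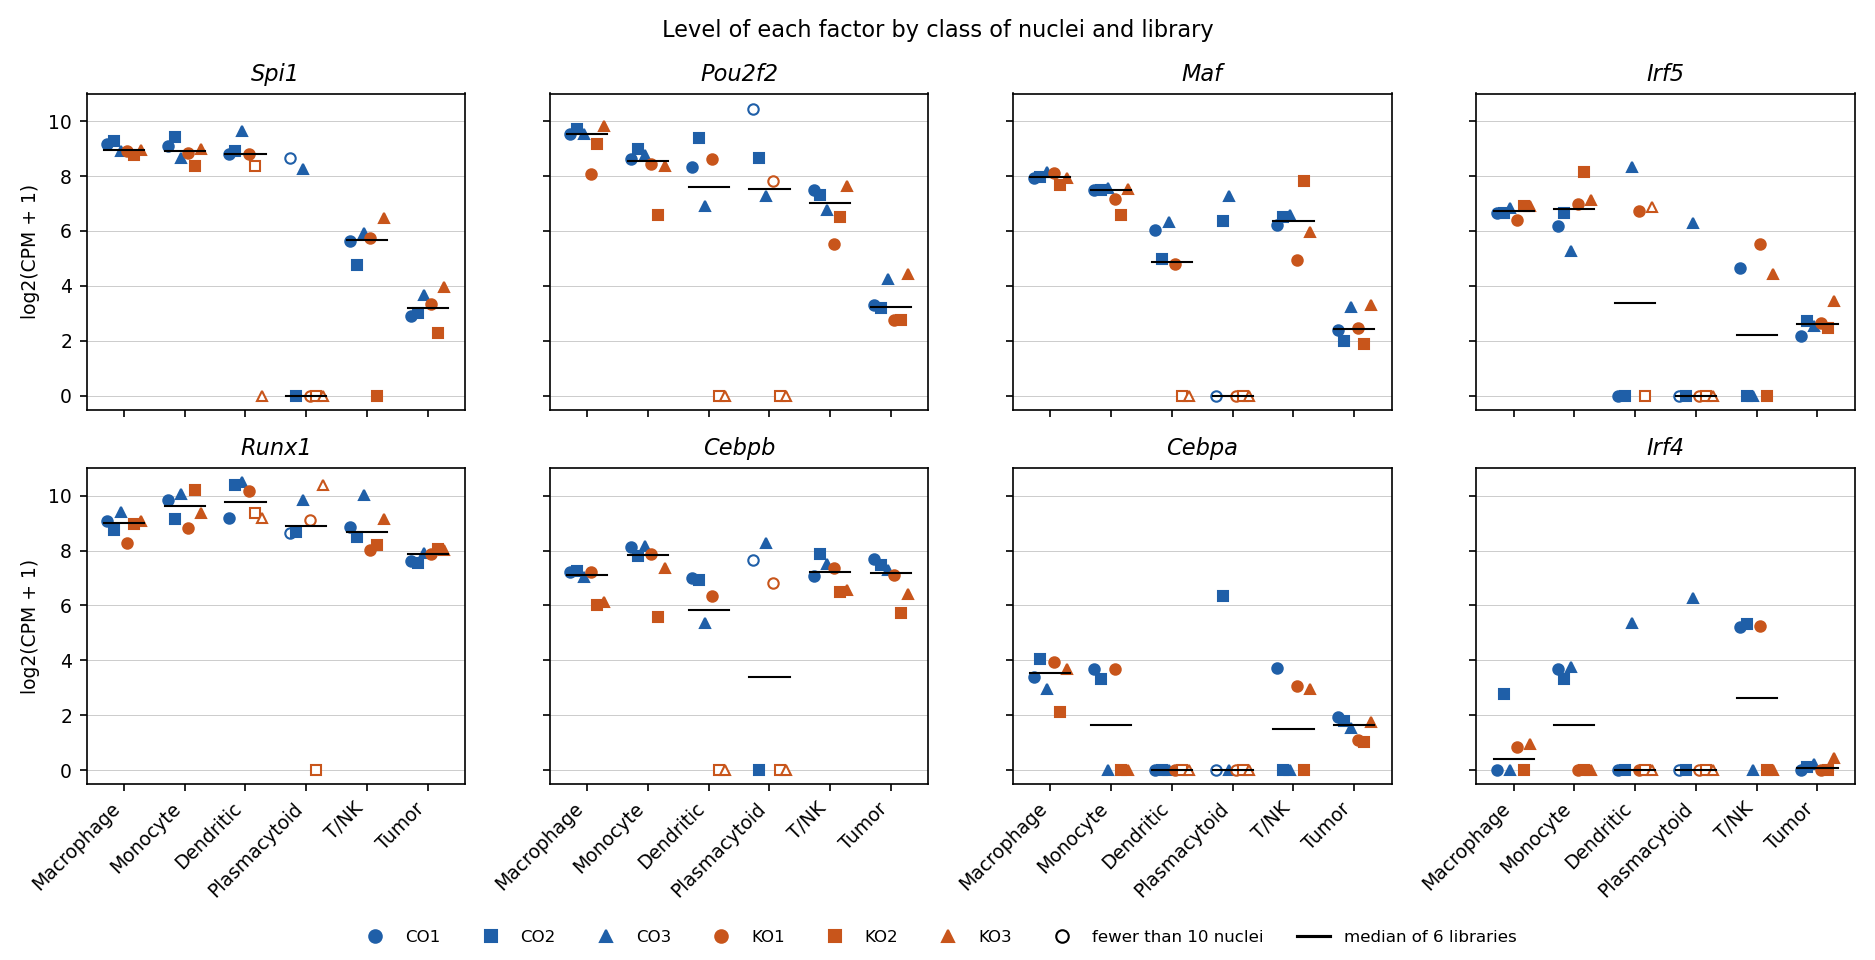
Level of 8 factors, as log2(CPM + 1), in 6 classes of nuclei, 1 point per library (CO blue, KO orange), with bars at the median of 6 libraries and open points for sums of fewer than 10 nuclei, which entered no test. Spi1, Pou2f2, Maf and Irf5 lay higher in macrophage and monocyte than in tumor nuclei in each of the 6 libraries, whereas Cebpb levels of macrophage and tumor nuclei overlapped.

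Spi1 was high in every macrophage sum. In macrophage nuclei it stood at 582, 621 and 481 CPM in CO1, CO2 and CO3 and at 487, 432 and 493 CPM in KO1, KO2 and KO3. In tumor nuclei the same libraries gave 6.42, 7.14, 11.5, 9.10, 3.82 and 14.4 CPM, so the lowest macrophage value was far above the highest tumor value. T/NK nuclei held 48.3, 26.0, 59.9, 52.1, 0 and 88.0 CPM, also below every macrophage value. The difference from tumor nuclei was 5.75 ± 0.19 on the log2 scale (edgeR adjusted p = 2.71e-27) and that from T/NK nuclei 3.39 ± 0.29 (adjusted p = 3.54e-13). At a fixed depth of 1000 UMIs, 41.3% of macrophage nuclei held a Spi1 UMI, against 0.700% of tumor and 5.11% of T/NK nuclei; without that thinning the shares were 48.4%, 4.95% and 4.93%, at medians of 1260, 5381 and 982 UMIs per nucleus.

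Pou2f2 was also higher in macrophage than in T/NK and tumor nuclei. In macrophage nuclei it read 743, 851 and 737 CPM in CO1 to CO3 and 270, 570 and 907 CPM in KO1 to KO3, with KO1 apart from the rest. In tumor nuclei it ranged from 5.79 to 20.6 CPM and in T/NK nuclei from 44.7 to 196 CPM, and neither range reached the lowest macrophage value. The differences were 5.75 ± 0.23 from tumor (adjusted p = 4.47e-25) and 2.44 ± 0.28 from T/NK nuclei (adjusted p = 1.56e-09). Levels are compared here between classes and not between genes, since nuclear RNA is rich in introns and spans differ: Pou2f2 spans 92383 bp (chr7:25087344-25179726, minus strand) and Spi1 33367 bp (chr2:91082390-91115756, plus strand).

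Maf stood in macrophage nuclei at 241, 252 and 280 CPM in CO1 to CO3 and 273, 206 and 245 CPM in KO1 to KO3. Tumor nuclei held 2.64 to 8.87 CPM, a difference of 5.45 ± 0.18 (adjusted p = 3.78e-27). T/NK nuclei held 29.8 to 224 CPM, and the highest, KO2, rested on 10 UMIs and passed the macrophage value of that library. The difference from T/NK nuclei was 1.76 ± 0.27 (adjusted p = 9.92e-07), with macrophage nuclei higher in 5 of 6 libraries.

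Irf5 was measured mainly in myeloid nuclei. Macrophage nuclei held 99.6, 98.5 and 113 CPM in CO1 to CO3 and 82.5, 118 and 121 CPM in KO1 to KO3, a narrow range. Tumor nuclei held 3.52 to 9.83 CPM, a difference of 4.04 ± 0.22 (adjusted p = 3.08e-20). In T/NK nuclei 3 libraries had no Irf5 UMI and the other 3 held 20.3 to 44.7 CPM, a difference of 2.55 ± 0.48 (adjusted p = 2.52e-05). The 3′ end of Irf5 (chr6:29526625-29541871, plus strand) overlaps Tnpo3 on the opposite strand, and whether strand was used in counting is not given in the sources used here.

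Irf4 was near the limit of detection. All nuclei together held 31 UMIs of Irf4, of which 11 fell in T/NK, 8 in macrophage, 5 in tumor, 3 in monocyte, 1 in dendritic and 1 in plasmacytoid nuclei, and the rest in nuclei without a class. Per total UMIs the T/NK sum, 19.3 CPM (95% Poisson interval 9.64 to 34.5), lay above the macrophage sum, 1.56 CPM (0.674 to 3.08). The intervals cover counting error only. Irf4 did not pass the filter and was not tested.

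Irf8 was listed at 0 UMIs in every barcode of every library, and this could not be read as absence. The gene (chr8:120736358-120756694, plus strand) lies inside the annotated span of Gm20388 (chr8:119910841-124345722, plus strand), a 4434882 bp gene model on the same strand that held 149932 UMIs. All 36 protein-coding genes within that span on the same strand were at 0 UMIs, among them the housekeeping genes Cox4i1, Rpl13 and Map1lc3b. On the opposite strand 1 of 35 was at 0 (2.857%), and over all 21861 protein-coding genes 16.75% were. Gm20388 itself did not single out a class: its summed levels ran from 1443 to 2552 CPM over the 6 classes, and it was lowest in KO2 and KO3 (712 and 1171 CPM in macrophage nuclei, against 2291 to 2940 in the other 4). Neither a level nor an upper limit for Irf8 is given.

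**Figure D2:**
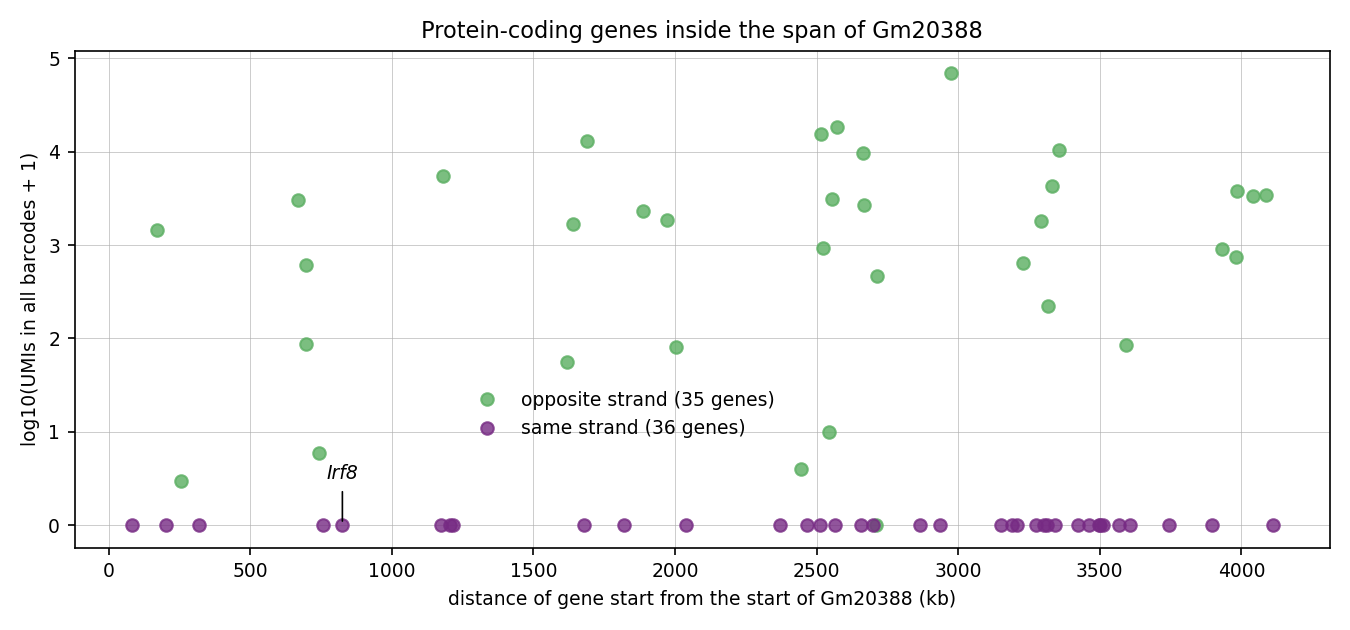
UMIs in all barcodes, as log10(UMIs + 1), of the protein-coding genes that lie within the span of Gm20388, by distance of the gene start from its start (kb), with genes on the same and on the opposite strand marked apart and Irf8 named. All 36 genes on the same strand sit at 0, Irf8 among them, while 34 of 35 on the opposite strand hold UMIs.

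Runx1 was present in all classes. Macrophage nuclei held 540, 426 and 681 CPM in CO1 to CO3 and 310, 496 and 540 CPM in KO1 to KO3, and tumor nuclei held 197, 185, 238, 232, 267 and 258 CPM. The ranges were apart, and the difference was 0.86 ± 0.16 (adjusted p = 1.25e-05). T/NK nuclei, at 260 to 1042 CPM, overlapped the macrophage range, with a difference of 0.06 ± 0.19 (adjusted p = 0.87). Runx1 has the longest span of the set, 224684 bp (chr16:92601466-92826149, minus strand), of which 5.35% is exonic.

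Cebpb did not separate macrophage from tumor nuclei. Macrophage nuclei held 149, 153 and 130 CPM in CO1 to CO3 and 146, 64.1 and 68.6 CPM in KO1 to KO3, against 204, 176 and 157 and 135, 51.6 and 84.8 CPM in tumor nuclei. Macrophage nuclei were higher in 2 libraries and lower in 4, and the difference of -0.37 ± 0.13 had an adjusted p of 0.00912 but missed the fold threshold. With DESeq2 size factors in the same fit it was -0.60 and passed both, while the median of all genes moved from -0.04 to -0.28. Cebpb is a single exon of 1504 bp (chr2:167688915-167690418, plus strand), overlapped by Tmem189 on the opposite strand.

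Cebpa, also short at 2636 bp (chr7:35119293-35121928, plus strand), was scarce. Macrophage nuclei held 60 UMIs, or 11.7 CPM (95% Poisson interval 8.94 to 15.1), and tumor nuclei 121 UMIs, or 1.88 CPM (1.56 to 2.25). Macrophage values lay between 3.37 and 15.6 CPM and were above the tumor values, 1.04 to 2.82 CPM, in 6 of 6 libraries, although Cebpa failed the filter of the class fit and has no test there. None of 86 dendritic nuclei held a Cebpa UMI, which allows a share of nuclei with a UMI of up to 3.49% and sets no limit on the share that express the gene.

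Free RNA from lysed cells can add UMIs to any nucleus, so the levels outside myeloid nuclei were set beside those of 13 macrophage genes that no class rule used, such as Mertk, Mpeg1 and Ctss. As a percentage of their own macrophage level, these 13 had a median of 3.66% in tumor nuclei (range 1.30 to 49.3%, the highest being Mertk) and 12.4% in T/NK nuclei (0 to 31.3%). Spi1 and Pou2f2 stood at 1.53% and 1.47% in tumor nuclei, Maf at 1.85% and Irf5 at 5.28%. In T/NK nuclei Spi1 stood at 10.3%, Irf5 at 18.9%, Pou2f2 at 19.6% and Maf at 30.3%. All of these fell within the range of the 13 genes, with Maf in T/NK nuclei near its upper end. Whether they came from free RNA or from expression in those nuclei was not tested. Runx1, at 48.5% in tumor and 106% in T/NK nuclei, and Cebpb, at 105% and 118%, stood above all 13 in T/NK nuclei. In tumor nuclei Cebpb stood above all 13 and Runx1 above all but Mertk. These 2 factors were measured well outside the myeloid classes too. Runx1 was nonetheless higher than in tumor nuclei in macrophage (0.86 on the log2 scale), monocyte (1.53) and dendritic nuclei (2.08).

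**Figure D3:**
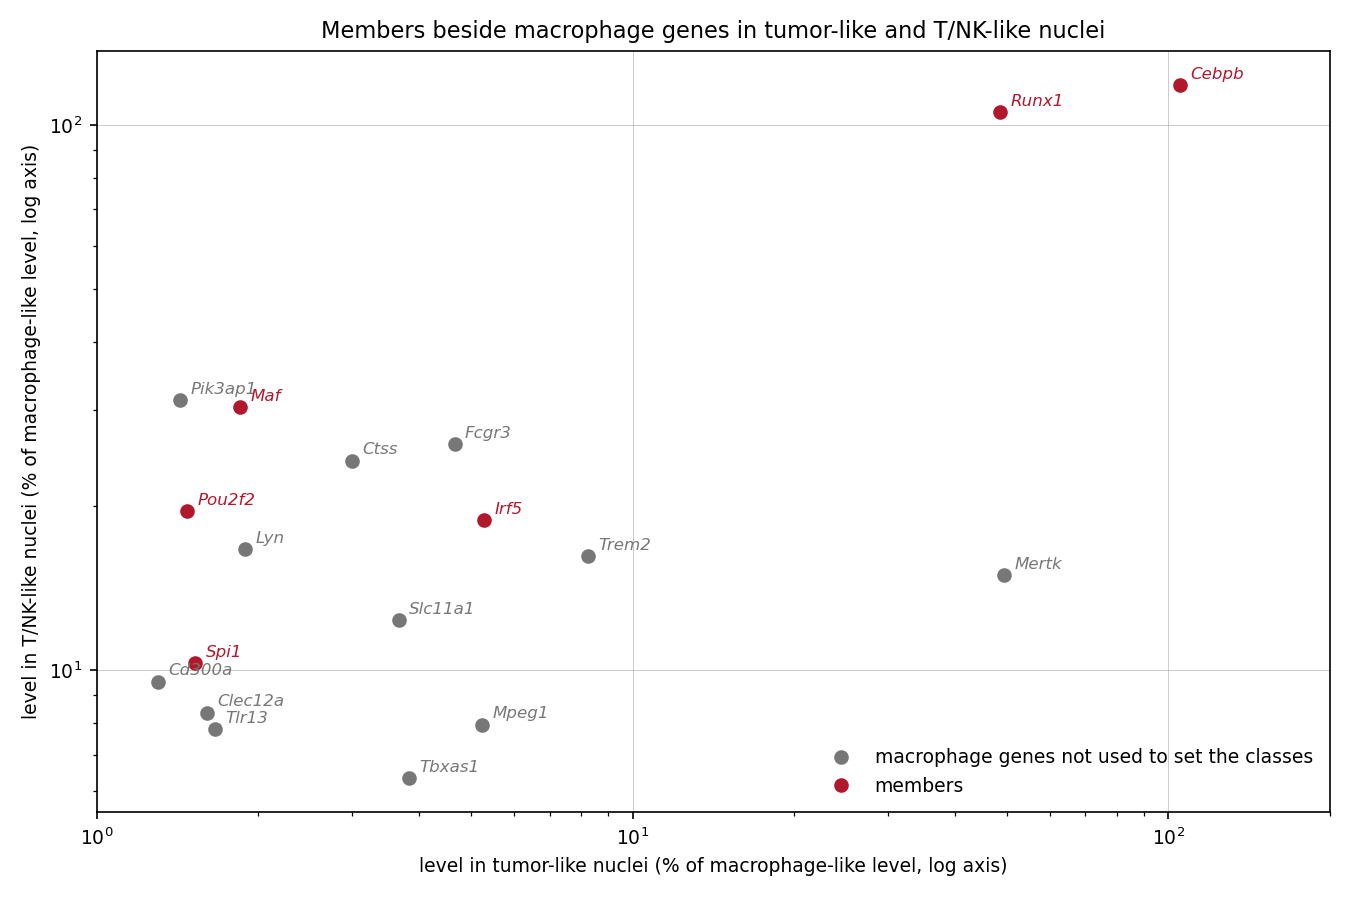
Level in T/NK nuclei (vertical) against level in tumor nuclei (horizontal), each as a percentage of the macrophage level (both axes log), for 6 factors (red) and 12 of the 13 macrophage genes that no class rule used (grey). The remaining one, Slco2b1, was left out for its few macrophage UMIs (20), and it had no T/NK UMI. Spi1, Pou2f2, Maf and Irf5 lie among the other macrophage genes, and Runx1 and Cebpb lie toward the upper right, with Cebpb above 100% on both axes.

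Monocyte nuclei held the same factors, and 2 of the 6 tested differed in level from macrophage nuclei. Against tumor nuclei, 5 of the 6 factors were higher (beside 27.5% of genes tested) and none was lower (28.8%, or 56.2% either way), and against T/NK nuclei all 6 tested were higher (15.2%) and none lower (11.5%, or 26.7% either way). Spi1 stood at 552, 692, 402, 453, 331 and 512 CPM in CO1 to CO3 and KO1 to KO3, a difference of 5.72 ± 0.22 from tumor (adjusted p = 9.43e-25) and 3.37 ± 0.31 from T/NK nuclei (adjusted p = 1.22e-11). Irf5 differed from tumor nuclei by 4.18 ± 0.37, Pou2f2 by 5.08 ± 0.27, Maf by 4.91 ± 0.29 and Runx1 by 1.53 ± 0.19. Cebpb was 0.55 ± 0.17 above tumor nuclei, under the fold threshold, and 0.64 ± 0.22 above T/NK nuclei (adjusted p = 0.0239). The last call was lost in 10 of the alternative settings tried, with values from 0.27 to 0.73, among them leaving out CO1, CO3, KO1 or KO3. Runx1 was 0.72 ± 0.21 above T/NK nuclei (adjusted p = 0.00747), which missed the threshold without CO1 (0.56, adjusted p = 0.061) or without KO2 (0.52, adjusted p = 0.0731), and when a single Mrc1 or Ccr2 UMI set the class (0.40, adjusted p = 0.2). With DESeq2 size factors the split over all genes went from 1736 higher and 1819 lower to 1406 and 2313 against tumor nuclei, and from 961 and 729 to 822 and 971 against T/NK nuclei.

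**Figure D4:**
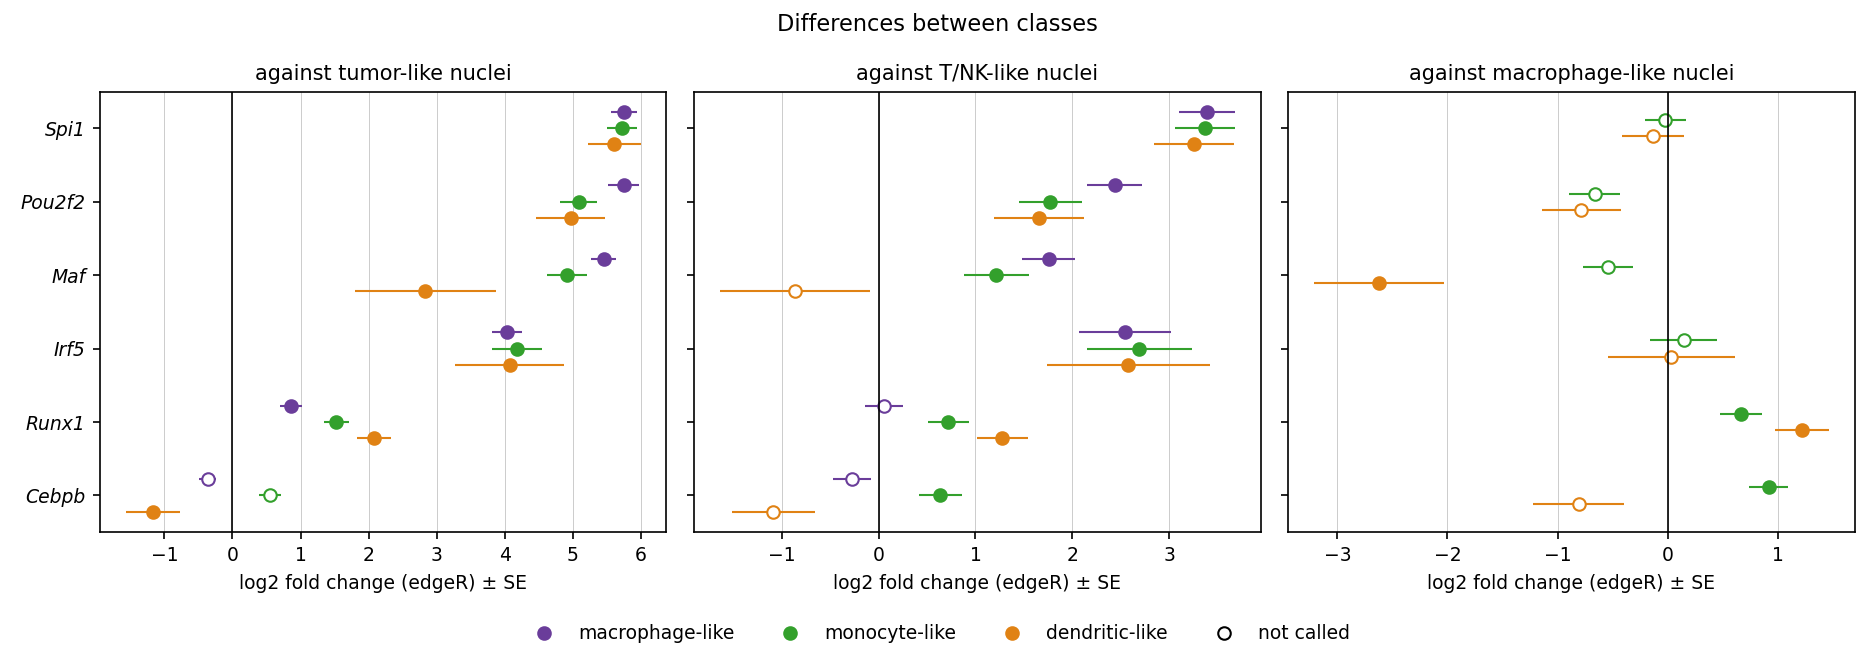
Difference (log2 fold change ± SE) of the 6 tested factors in macrophage, monocyte and dendritic nuclei against tumor nuclei, T/NK nuclei and macrophage nuclei, with open points where the test was not passed. Spi1 lies between 3.26 and 5.75 in each of the macrophage, monocyte and dendritic comparisons with tumor or T/NK nuclei, and near 0 between monocyte and macrophage nuclei.

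Between monocyte and macrophage nuclei, 2 of the 6 were higher in monocyte nuclei (beside 6.77% of genes tested) and none was lower (4.26%). In Cebpb, monocyte nuclei held 276, 224.5 and 289 CPM in CO1 to CO3 and 236, 47.3 and 163 CPM in KO1 to KO3, above the macrophage nuclei of the same library in 5 of 6. The exception, KO2, rested on 1 UMI in 14 nuclei. The difference was 0.92 ± 0.18 (adjusted p = 0.000221). It stayed called without any single library and was 0.72 (adjusted p = 0.316) when nuclei with any tumor-marker UMI were removed.

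Runx1 was higher in monocyte than in macrophage nuclei in 6 of 6 libraries, at 924, 575, 1082, 449, 1182 and 663 CPM. The difference of 0.67 ± 0.19 (adjusted p = 0.0132) missed the threshold without CO1 (0.52, adjusted p = 0.0896) or without CO2 (0.65, adjusted p = 0.0681), with no filter on low counts (0.43, adjusted p = 0.0782), when nuclei with any tumor-marker UMI were removed (0.65, adjusted p = 0.187) and when a single Mrc1 or Ccr2 UMI set the class (0.32, adjusted p = 0.489). Maf pointed the other way: monocyte nuclei held 180, 180, 189, 142, 94.6 and 186 CPM, below the macrophage range in 6 of 6 libraries, with a difference of -0.54 ± 0.23 (adjusted p = 0.115). Pou2f2 gave -0.66 ± 0.23 (adjusted p = 0.0512), passing without KO1 (-0.98, adjusted p = 0.00353), and was -0.17 when a single Mrc1 or Ccr2 UMI set the class. Spi1 and Irf5 differed by -0.02 and 0.14.

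Dendritic nuclei held Spi1 and Runx1 and little Maf. Against tumor nuclei, 5 of the 6 factors were higher (beside 17% of genes tested) and Cebpb was lower (19.4%). Against T/NK nuclei 4 were higher (7.07%) and none was lower (5.76%). Spi1 read 448, 482, 797 and 451 CPM in CO1, CO2, CO3 and KO1, close to macrophage nuclei, and differed from tumor nuclei by 5.61 ± 0.39 (adjusted p = 1.00e-15). Irf5 had no UMI in CO1 and CO2 and 319 and 106 CPM in CO3 and KO1, from 8 and 4 UMIs. Without CO3 its calls against tumor (2.78, adjusted p = 0.0647) and T/NK nuclei (1.10, adjusted p = 0.629) were lost, the latter also without KO2 (2.37, adjusted p = 0.0615). Against tumor nuclei Maf gave 2.83 ± 1.03 (adjusted p = 0.0281), lost without CO1, CO2 or CO3 (2.61 to 2.77). Against T/NK nuclei Pou2f2 gave 1.65 ± 0.47 (adjusted p = 0.0122), lost without CO2 (1.27) or KO1 (1.28), and Runx1 gave 1.27 ± 0.26 (adjusted p = 0.000519), lost without CO2 (0.99, adjusted p = 0.0523).

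Against macrophage nuclei, 1 factor was higher in dendritic nuclei (beside 3.42% of genes tested) and 1 was lower (2.94%, or 6.36% either way). Runx1 was the higher, at 576, 1356, 1434 and 1166 CPM in CO1, CO2, CO3 and KO1, above the macrophage nuclei of all 4 libraries by 1.22 ± 0.25 (adjusted p = 0.000644). Without CO2 it was 0.93 (adjusted p = 0.0842), and 0.79 (adjusted p = 0.471) when nuclei with any tumor-marker UMI were removed. Maf was the lower, at 64.0, 30.1, 79.7 and 26.5 CPM from 1 or 2 UMIs each, under every macrophage value. The difference was -2.62 ± 0.59 (adjusted p = 0.00288), and it stayed called without any single library but missed the threshold when nuclei with any tumor-marker UMI were removed (-3.32, adjusted p = 0.0782). Cebpb, at 128, 121, 39.8 and 79.5 CPM, was below macrophage nuclei in 4 of 4 libraries, and against tumor nuclei its difference was -1.17 ± 0.40 (adjusted p = 0.0174), lost without CO3 (-1.03, adjusted p = 0.067) and without nuclei that held any UMI of the opposing class's markers (-1.04, adjusted p = 0.426). The latter removal also ended the calls of Irf5 (2.09, adjusted p = 0.553) and Maf (2.27, adjusted p = 0.524) against tumor nuclei. With DESeq2 size factors 233 genes were higher and 132 lower than in macrophage nuclei, against 216 and 186 as reported.

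Plasmacytoid nuclei were the fewest. Their 39 nuclei held 45951 UMIs in all, and 2 libraries entered the fit. Spi1 was at 131 CPM (95% Poisson interval 47.9 to 284, 6 UMIs), with 0 UMIs in CO2, and its difference from macrophage nuclei was -2.29 ± 0.71 (adjusted p = 0.0661), while the median of all genes in that comparison was -0.68. Runx1 stood at 675 CPM (458 to 958) and Pou2f2 at 348 CPM (199 to 565). With edgeR as reported, Pou2f2 against tumor nuclei was the only call (3.83 ± 1.13, adjusted p = 0.0177, beside 5.84% of genes tested called higher), and it was lost without CO2 (2.68, adjusted p = 0.467). DESeq2 also called Spi1 (3.57, adjusted p = 0.000143) and Maf (3.91, adjusted p = 0.000335) against tumor nuclei, and in edgeR Spi1 passed with DESeq2 size factors (3.58, adjusted p = 0.0484) and with no filter on low counts (3.19, adjusted p = 0.046). No factor was lower than in tumor nuclei (beside 7.59%). None of the 6 was called against T/NK nuclei (beside 2.03% higher and 1.6% lower, 3.62% in all), macrophage nuclei (1.66% and 1.8%, 3.47% in all) or dendritic nuclei (0.759% and 0.807%, 1.57% in all). With DESeq2 size factors the genes higher and lower numbered 144 and 69 against T/NK (128 and 101 as reported), 122 and 51 against macrophage (105 and 114) and 57 and 28 against dendritic nuclei (48 and 51). Leaving KO2 and KO3 out of the whole fit also put Spi1 (3.58, adjusted p = 0.0259) and Maf (3.95, adjusted p = 0.024) past the threshold against tumor nuclei, and Spi1 against macrophage nuclei (-2.23, adjusted p = 0.0407).

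KO2 and KO3 carried more tumor-marker RNA in their macrophage nuclei (2708 and 2745 CPM over the 13 listed tumor genes, against 831 to 1393 in the other 4). When classes were compared in CO1, CO2, CO3 and KO1 only, each call named above for macrophage, monocyte and dendritic nuclei held except Irf5 in dendritic against T/NK nuclei (2.27, adjusted p = 0.0854).

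Relatives and partners of the 9 factors were described from a list of 24 genes, of which 16 were tested. In macrophage against tumor nuclei 7 were higher (beside 25.4% of all genes tested) and 2 lower (27.7%), so that 9 of 16 were called where 53.2% of all genes were, with a median difference of 0.39 beside -0.04 for all genes. The ETS factor Fli1 was higher by 5.08 ± 0.22, Runx3 by 3.88 ± 0.21 and Irf7, induced by interferon, by 2.12 ± 0.18, and Runx2 gave -1.27 ± 0.17. Against T/NK nuclei the other RUNX genes were lower, with Runx3 at -2.40 ± 0.21 and Runx2 at -1.82 ± 0.19, beside 4 genes that were higher (17% of all genes were higher and 13.7% lower). Monocyte nuclei had more Irf7 than macrophage nuclei (1.46 ± 0.23, adjusted p = 1.31e-05), the 1 call of 16, beside 6.77% of all genes called higher. Dendritic nuclei had more Runx3 than macrophage nuclei (1.19 ± 0.36, adjusted p = 0.0376), again 1 of 16, beside 3.42%. In plasmacytoid nuclei Runx2, known in those cells, exceeded macrophage nuclei by 3.66 ± 0.33 (adjusted p = 6.02e-11), also 1 of 16, beside 1.66%.

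Other transcription factors of myeloid and dendritic cells formed a list of 24, of which 17 were tested. Macrophage nuclei had 12 higher (beside 25.4% of all genes tested) and 3 lower (27.7%) than tumor nuclei, with a median of 1.65, and 7 higher (17%) and 4 lower (13.7%) than T/NK nuclei, with a median of 0.43. The leading genes were Pparg, a lipid-sensing nuclear receptor, at 5.60 ± 0.26, Ikzf1 (Ikaros) at 5.50 ± 0.23, Batf at 5.43 ± 0.27 and Tfec at 5.19 ± 0.27. Monocyte nuclei had 2 higher than macrophage nuclei (beside 6.77% of all genes tested), among them Hif1a (0.84 ± 0.18). They had 2 lower (4.26%), Pparg (-1.14 ± 0.38) and Tfeb (-0.73 ± 0.22). Dendritic nuclei had 3 higher (beside 3.42% of all genes tested) and 2 lower (2.94%) than macrophage nuclei. The higher were Bhlhe40 at 2.50 ± 0.63, Id2 at 2.43 ± 0.60 and Relb, an NF-κB subunit, at 1.39 ± 0.34. The lower were Mitf at -1.39 ± 0.35 and Zeb2 at -1.30 ± 0.26. In plasmacytoid nuclei Tcf4, the E protein known to define them, was 2.72 ± 0.35 above macrophage nuclei (adjusted p = 2.75e-07) and Zeb2 -1.94 ± 0.40 (adjusted p = 0.00136).

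Known target genes of these factors made a list of 23, of which 16 were tested. In macrophage nuclei 15 were higher than in tumor nuclei (beside 25.4% of all genes tested) and none lower (27.7%), with a median of 5.13, and 13 were higher than in T/NK nuclei (17%). In dendritic nuclei 14 were higher than in tumor (17%) and 6 than in T/NK nuclei (7.07%), and in plasmacytoid nuclei 9 (5.84%) and 2 (2.03%). Higher in macrophage than in tumor nuclei were Tnf (6.08 ± 0.23), Cybb, the phagocyte oxidase (5.67 ± 0.23), and Csf3r (5.67 ± 0.20), and Cd14 gave 0.50 ± 0.29 (adjusted p = 0.125). Monocyte nuclei had 5 higher (beside 6.77% of all genes tested) and 1 lower (4.26%) than macrophage nuclei. Among the higher were Lyz2, lysozyme, at 2.02 ± 0.20, Cd14 at 1.88 ± 0.38, Itgb2 at 1.39 ± 0.35 and Fcgr1 at 1.31 ± 0.23. The lower was Tnf at -0.87 ± 0.29. Dendritic nuclei had more Ciita, the MHC class II transactivator, than macrophage nuclei (1.87 ± 0.27) and less Tlr4 (-2.15 ± 0.62). Itgam, the CD11b gene, was at 0 UMIs throughout and shares its locus with the same-strand model Gm49368.

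Libraries labelled KO and CO were compared within classes to ask whether host MCT2 deletion moved these factors. No factor passed the test in any class, and neither did any gene: edgeR called 0% of 13661 genes over all nuclei, 0% of 9394 in macrophage, 0% of 2236 in monocyte, 0% of 2271 in T/NK and 0% of 12996 in tumor nuclei. At an unadjusted p under 0.05 the counts were 657, 455, 42, 101 and 847, and DESeq2 called 12, 1, 0, 2 and 39. Of the 9 factors, 7 were tested over all nuclei and in macrophage and tumor nuclei, 6 in monocyte nuclei and 3 in T/NK nuclei. In macrophage nuclei the 7 differences ran from -0.57 (Cebpb) to 0.07 (Irf5), with standard errors of 0.20 to 0.49. In the sums over all nuclei, a change in the share of a class and a change in level within it cannot be told apart.

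In tumor nuclei Cebpb was lower in every KO library. CO1, CO2 and CO3 held 204, 176 and 157 CPM and KO1, KO2 and KO3 held 135, 51.6 and 84.8 CPM (179 ± 23.6 against 90.6 ± 42.2, SD, n = 3 each), without overlap, as was so for 7.81% of 13759 genes in the same direction. The log2 fold change was -0.93 ± 0.31, with an edgeR adjusted p of 0.597. In macrophage nuclei the groups overlapped, since KO1 read 146 CPM beside 130 to 153 in CO, and KO2 and KO3 read 64.1 and 68.6 CPM (-0.57 ± 0.30, adjusted p = 0.883). Messengers of ribosomal proteins were low in the same libraries: in macrophage nuclei they made up 16966, 17058 and 12817 CPM in CO1 to CO3 and 21420, 4840 and 9981 CPM in KO1 to KO3, and in tumor nuclei 13884, 11827 and 8273 and 13864, 3067 and 5351 CPM. Their part in the Cebpb difference was not tested. Without KO1, Cebpb was called lower in macrophage (-1.04, adjusted p = 0.0125, as were 5.55% of genes) and in tumor nuclei (-1.31, adjusted p = 0.0247, as were 13.9% of genes).

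**Figure D5:**
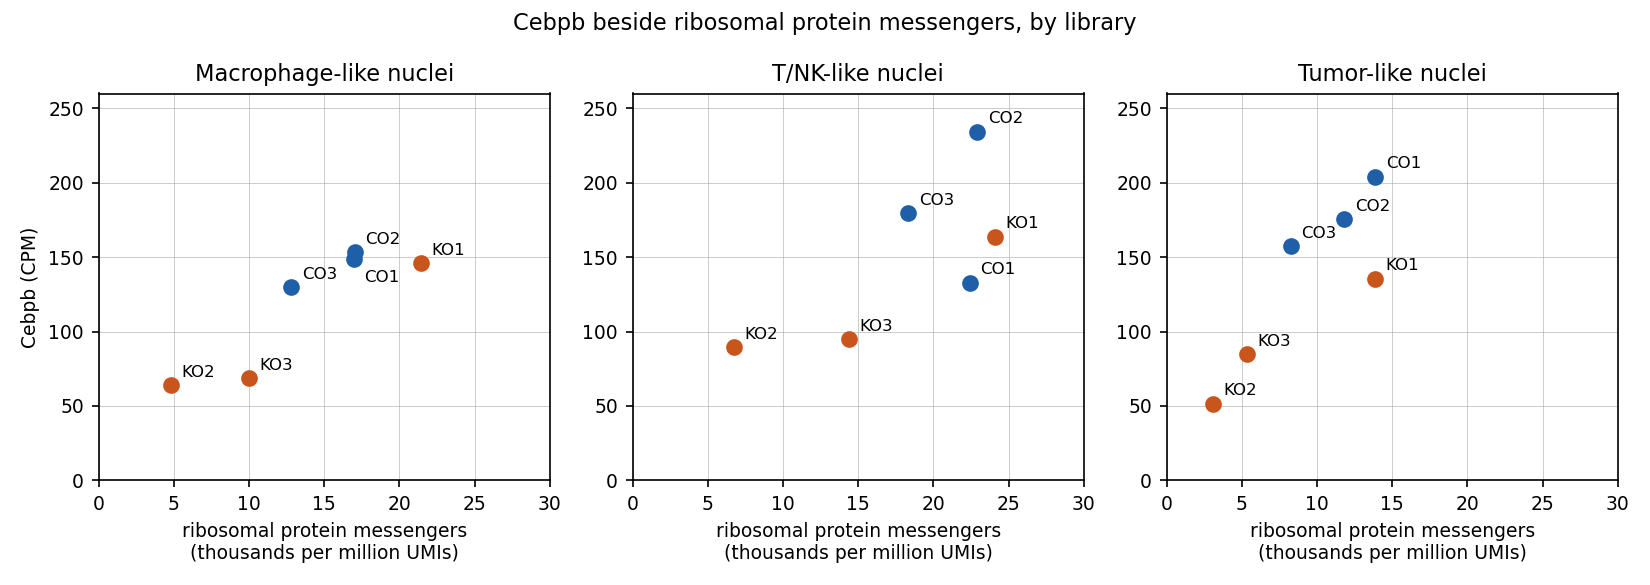
Cebpb level (CPM, vertical) against the summed level of ribosomal protein messengers (horizontal, in units of 1000 CPM) in macrophage, T/NK and tumor nuclei, 1 point per library, CO blue and KO orange. KO2 and KO3 lie lowest on both axes in all 3 panels.

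The other factors showed smaller or more scattered differences. Irf5 in monocyte nuclei stood at 72.0, 98.8 and 37.7 CPM in CO1 to CO3 and 126, 284 and 140 CPM in KO1 to KO3, apart as in 3.07% of 4890 genes in that direction. These rested on 3 to 11 UMIs in CO and 6 to 32 in KO, and the difference was 1.14 ± 0.48 (adjusted p = 1.00). Pou2f2 in monocyte nuclei was lower in each KO library (346, 94.6 and 326 CPM) than in CO (396, 512 and 440 CPM), as in 5.28% of genes, with a difference of -0.57 ± 0.41 (adjusted p = 1.00). The KO2 value of Pou2f2 there rested on 2 UMIs in 14 nuclei. In macrophage nuclei Pou2f2 overlapped between groups and gave -0.37 ± 0.39, and 0.01 without KO1. Runx1 in tumor nuclei was 0.37 ± 0.18 higher in KO (adjusted p = 0.597) and in macrophage nuclei -0.25 ± 0.30, and the difference between these, -0.60 ± 0.22, had an edgeR interaction adjusted p of 0.84, where 0% of 12812 genes were called.

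Spi1 and Maf in macrophage nuclei had small differences. Spi1 stood at 561 ± 72.5 (SD, n = 3) CPM with vehicle and 471 ± 33.9 CPM with tamoxifen, and edgeR gave -0.22 ± 0.21 on the log2 scale (adjusted p = 0.883). Maf stood at 257 ± 19.8 and 241 ± 33.7 CPM, which gave -0.06 ± 0.20 (adjusted p = 0.968). A p that misses the threshold does not show that the groups were alike. Dendritic and plasmacytoid nuclei could not be tested by group. Pooled dendritic Spi1 was 582 CPM in CO (95% Poisson interval 421 to 784, 43 UMIs) and 363 CPM in KO (219 to 568, 19 UMIs), and Runx1 was 1218 CPM (979 to 1497) and 1014 CPM (759 to 1326). These intervals cover counting error only. KO1 supplied 17 of the 19 Spi1 UMIs and 44 of the 53 Runx1 UMIs of the KO pool, so the pool was largely that library. No gene of the 3 lists was called between KO and CO in any class.

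Genes with a closely similar pattern over the 30 sums were named as a description, by Pearson correlation of log2(CPM + 1) among 14342 genes, with no p, since the sums share libraries, depth and the class structure. For Spi1 they were Ptpn18 (0.96), Ms4a4a (0.96) and Spint1 (0.95), for Pou2f2 Foxn3 (0.93) and Itga9 (0.93), and for Maf Fyb and Lrmda (both 0.93). Irf5, with fewer UMIs, reached 0.85 with Hacd4. Runx1 was closest to Ciita (0.82). Cebpb was closest to Ssbp4 (0.93), Atp6v1g1 (0.92), a subunit of the vacuolar proton pump, and Hmgn1 (0.90), a chromatin protein.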

How the data were processed

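Nuclei of 6 frozen tumors were profiled by 10x 3′ snRNA-seq. The deposited values are UMI counts per gene and barcode, which the authors made against GRCm38 with Cell Ranger (3.0.2 in the submitters' processing notes) and did not normalise. SoupX is named in the study's methods, but the values are whole numbers. Whether introns or strand were counted is not given in the sources used here, and some samples had extra washes.

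Barcodes with 100 to 7500 genes and under 20% mitochondrial counts were kept (18014), and the highest Scrublet scores (scanpy 1.11.5) were removed at 0.8% per 1000 barcodes (521), since the automatic call marked 11, or 0.0611%. Classes came from UMIs of listed markers: for myeloid nuclei at least 3 UMIs and a share of 0.3 of the marker UMIs, with 1111 nuclei near that limit. The thresholds were set after marker levels were seen. The factors and lists were chosen with earlier results of these data known. All members were named, with the called genes of largest change from each list; genes withheld here are counted in their lists but not reported by name. Counts summed per library and class (at least 10 nuclei) were tested with edgeR 4.0.16 in R 4.3.3 (TMM, filterByExpr, quasi-likelihood F-test, Benjamini-Hochberg adjustment over all genes tested), with a call at 0.58 on the log2 scale and an adjusted p of 0.05. The code was tested on simulated data. DESeq2 1.42.0, other filters, gates, thinning to 1000 UMIs, and fits without each library were alternatives, of which the gate by a single Mrc1 or Ccr2 UMI and the fit on CO1, CO2, CO3 and KO1 were added after seeing the data. Thinning left out 4412 nuclei.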

Additional observations from a re-analysis of the deposited data

How the results depend on the processing

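The counts of genes called moved with the low-count filter, the gate, the depth per nucleus and the libraries used. Given as the reported count and the range without each library, macrophage against tumor nuclei gave 3361 (2683 to 4247), monocyte against tumor 3555 (2724 to 4049), against T/NK 1690 (1272 to 1671) and against macrophage 697 (477 to 661), dendritic against tumor 2302 (1693 to 2351), against T/NK 811 (556 to 819) and against macrophage 402 (252 to 408), and plasmacytoid against tumor 849 (328 to 938), T/NK 229 (60 to 247), macrophage 219 (56 to 299) and dendritic 99 (16 to 117). With no filter on low counts these became 6886 for macrophage against tumor, 5485 for monocyte against tumor, 1104 for monocyte, 816 for dendritic and 431 for plasmacytoid against macrophage nuclei. The stricter gate gave 5070 for macrophage and 922 for dendritic against tumor, and 254 and 154 for monocyte and dendritic against macrophage nuclei. Thinning gave 1110 and 291 for monocyte and dendritic against T/NK, 1292 for dendritic against tumor, and 372 and 216 for monocyte and dendritic against macrophage nuclei. Monocyte against macrophage gave 457 with at least 500 genes and under 5% mitochondrial counts and 211 by a single Mrc1 or Ccr2 UMI, a gate chosen after seeing the data. DESeq2 gave 52 for plasmacytoid against dendritic. KO against CO called 0 in each class and 0 to 937 in macrophage, 0 to 58 in T/NK and 0 to 2681 in tumor nuclei without each library. DESeq2 called 12 over all nuclei, 1 in macrophage, 2 in T/NK and 39 in tumor nuclei. Unfiltered, 2, 9 and 48 were called in macrophage, monocyte and T/NK nuclei. The interaction gave 0 to 3 without each library, 53 unfiltered, 4 thinned and 1 by a single Mrc1 or Ccr2 UMI. The cause of these changes was not tested. Over all nuclei CO1 deviated together with KO1 (correlation 0.525) and CO3 with KO3 (0.404), but CO2 did not with KO2 (-0.31). The differently numbered CO2 and KO1 reached 0.382. The median mitochondrial percentage per nucleus did follow the numbers. It was 6.76 in CO1 and 6.21 in KO1, 3.93 in CO2 and 3.81 in KO2, and 1.33 in CO3 and 0.890 in KO3. Whether libraries of the same number shared a preparation was not tested. The numbers were not taken as pairs in the reported fits, and with the replicate block 2 genes were called in T/NK nuclei and 0 elsewhere. Class shares, KO minus CO without each library, ran from -0.79 to 0.38 percentage points for T/NK (-0.14 with all), -1.66 to 0.49 for monocyte (-0.38) and -8.59 to 12.4 for tumor nuclei (2.20). Dendritic and plasmacytoid nuclei could not be fitted between KO and CO in any setting, nor plasmacytoid comparisons under the stricter gate, the stricter filter on nuclei or thinning, T/NK comparisons, the interaction, or KO against CO in macrophage, monocyte and T/NK nuclei under the stricter gate, and KO against CO in monocyte nuclei under the stricter filter on nuclei or thinning, all for want of nuclei. Cebpa, Irf4 and the plasmacytoid values were limited by UMIs.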

Other observations

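The 1460 myeloid nuclei that could be placed in neither the macrophage nor the monocyte class held Spi1 at 461 CPM (95% Poisson interval 427 to 497), Pou2f2 at 653 CPM, Maf at 158 CPM, Irf5 at 89.3 CPM, Runx1 at 530 CPM and Cebpb at 172 CPM, at a median of 903.5 UMIs per nucleus. The 3059 nuclei that met no class rule held Spi1 at 74.5 CPM, Pou2f2 at 103 CPM, Runx1 at 260 CPM and Cebpb at 230 CPM. The interval covers counting error only, and these values entered no comparison.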
